A study of Homo sapiens with 24 samples.

Results

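Divergent transcript (DT) genes are lncRNA genes that are named after a neighbouring gene, with the suffix -DT, because they start close to its promoter and run away from it. They were taken as all rows of the gene body count table whose ID, without its version, belongs in GENCODE release 44 to a lncRNA gene with a symbol that ends in -DT. This gave 588 of the 54377 genes of the table. For 587 of them the symbol before -DT is that of a protein-coding gene (PCG), called the partner from here on, and for UHRF1BP1L-DT it is not.

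The counts came from mNET-seq, in which RNA Pol II is pulled down with its nascent RNA and that RNA is read on each strand. By the methods, gene body counts were made from alignments of full reads, not from the 3′ ends that mark RNA Pol II positions. The cells were U2OS, an established osteosarcoma line, WT and 1 line for every group. Irradiated cells received 10 Gy of ionizing radiation (IR), 10 min before collection by the labels and longer by the methods, and the others were nonirradiated. Antibodies to RNA Pol II with a C-terminal domain phosphorylated at tyrosine 1 (Y1P), serine 2 (S2P) or serine 5 (S5P) gave 6 groups: Y1P irradiated, S2P irradiated, S5P irradiated, and the Y1P, S2P and S5P groups of nonirradiated cells, with 2 libraries each. Nothing in the labels says that the 2 libraries of a group came from separate cultures, so a p-value speaks only to how far these libraries varied, which may be technical.

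The 12 libraries held 16220773 to 33144659 counts, and DT genes took 0.210% to 0.293% of them. The mesenchymal markers RUNX2, SPARC, VIM and FN1 were measured in every library, with RUNX2 at 462 to 695 CPM, while SP7, COL1A2, TWIST1 and POSTN stayed at or below 1.51 CPM. The 10 markers of that list summed to 867 to 1244 CPM. The 6 epithelial markers summed to 85.3 to 113.8 CPM, mostly on KRT8 and KRT18, with EPCAM and CDH1 at 3.92 to 8.44 CPM and KRT19 at or below 0.114 CPM. The 5 neural markers summed to 29.9 to 57.9 CPM, mostly on MAP2 and RBFOX3. The 5 blood markers summed to 3.28 to 5.65 CPM, mostly on PTPRC, with HBB at or below 0.0553 CPM. These sums are not scaled by gene length. Per kb of gene body the medians were 1.71 CPM for RUNX2 and 9.55 CPM for VIM, against 4.87 CPM for KRT18 and 1.34 CPM for KRT8. CPM are counts relative to the library total, scaled here by TMM, a factor per library that centres most genes, and the nonirradiated Y1P library 2 had the lowest factor, at 0.835, against 0.942 to 1.09 in the other 11 libraries.

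RNA Pol II starts in both directions at most active promoters of human cells. Away from the gene it makes promoter upstream transcripts (PROMPTs), which are usually ended early by Integrator or by cleavage at poly(A) sites and then degraded by the nuclear exosome. A DT gene is an annotated, often spliced form of such a transcript, so it reports on the same promoter as its partner but in the opposite direction. A count here covers the gene body, from 200 bases past the start of a gene to its end, so it leaves out the first stretch of each DT gene, where a paused RNA Pol II and most short PROMPTs would lie.

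The space between the 5′ ends of a DT gene and its partner is what the pair shares. Of the 588 DT genes, 311 started 0 to 250 bases upstream of the partner, 105 over 250 and up to 1000 bases and 20 further away. Another 150 started past the 5′ end of the partner, so that the 5′ ends of the pair overlapped, and TNFRSF10A-DT lay on the strand of its partner. The intervals below belong to DT genes whose signal is described in what follows. Each is written 5′ to 3′ in the direction of the DT gene, which starts right after the last base, from hg38 at the 5′ ends of GENCODE genes, and none overlaps an annotated exon. Where the interval was longer than 300 bases (H2AZ2-DT, at 328 bases, and CDK13-DT, at 365 bases), the 300 bases next to the DT gene are given. Capitals mark matches on either strand. The letters searched were GGGCGG for the GC box, which zinc finger factors of the Sp family bind, and CCAAT for the box of the same name, which the factor NF-Y binds. An ETS site was searched as CCGGAAG, the CRE of cyclic AMP signalling as TGACGTC, and the E-box of basic helix-loop-helix factors as CACGTG.
ZMPSTE24-DT (chr1:40257972-40258040, minus strand): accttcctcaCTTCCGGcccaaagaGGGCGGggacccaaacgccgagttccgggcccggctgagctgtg
NFE2L1-DT (chr17:48048108-48048328, minus strand): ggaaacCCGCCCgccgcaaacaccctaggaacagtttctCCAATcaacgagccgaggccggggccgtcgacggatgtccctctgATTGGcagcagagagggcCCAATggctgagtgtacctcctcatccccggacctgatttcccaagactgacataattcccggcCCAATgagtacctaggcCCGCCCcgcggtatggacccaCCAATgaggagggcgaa
H2AZ2-DT (chr7:44848116-44848415, plus strand): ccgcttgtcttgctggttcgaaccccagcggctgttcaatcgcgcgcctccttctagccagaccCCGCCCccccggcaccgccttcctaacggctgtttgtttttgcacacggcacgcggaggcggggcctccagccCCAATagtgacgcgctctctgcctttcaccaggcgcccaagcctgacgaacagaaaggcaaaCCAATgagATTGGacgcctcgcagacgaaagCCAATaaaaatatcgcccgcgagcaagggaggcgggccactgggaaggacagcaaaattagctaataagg
EMSY-DT (chr11:76444691-76444922, minus strand): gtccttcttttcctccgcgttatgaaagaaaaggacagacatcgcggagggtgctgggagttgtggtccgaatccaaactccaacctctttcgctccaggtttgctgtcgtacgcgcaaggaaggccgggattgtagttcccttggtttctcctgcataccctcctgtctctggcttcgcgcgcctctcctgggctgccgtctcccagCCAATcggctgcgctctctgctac
RANBP3-DT (chr19:5978143-5978332, plus strand): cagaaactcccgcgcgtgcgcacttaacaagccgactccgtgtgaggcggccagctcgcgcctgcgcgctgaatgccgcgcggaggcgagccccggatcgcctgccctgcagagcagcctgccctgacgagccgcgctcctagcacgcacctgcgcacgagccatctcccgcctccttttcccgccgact
STAM-DT (chr10:17643879-17644150, minus strand): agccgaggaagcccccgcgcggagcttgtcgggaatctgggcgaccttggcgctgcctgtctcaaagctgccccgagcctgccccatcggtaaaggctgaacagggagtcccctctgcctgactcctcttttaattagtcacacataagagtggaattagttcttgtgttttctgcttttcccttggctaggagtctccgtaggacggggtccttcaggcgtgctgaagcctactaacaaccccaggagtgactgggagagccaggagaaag
CDK13-DT (chr7:39949756-39950055, minus strand): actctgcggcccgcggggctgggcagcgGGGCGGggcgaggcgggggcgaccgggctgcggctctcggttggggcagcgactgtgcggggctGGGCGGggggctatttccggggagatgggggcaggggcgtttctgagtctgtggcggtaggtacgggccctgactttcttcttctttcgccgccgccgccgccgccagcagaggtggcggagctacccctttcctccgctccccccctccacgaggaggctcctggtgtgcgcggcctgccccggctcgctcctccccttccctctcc
TNKS2-DT (chr10:91798310-91798425, minus strand): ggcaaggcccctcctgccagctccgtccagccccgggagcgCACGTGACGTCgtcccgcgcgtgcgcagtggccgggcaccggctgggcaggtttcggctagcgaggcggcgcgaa

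ZMPSTE24-DT had the shortest of these intervals, of 69 bases, with an ETS match and a GC box match. The NFE2L1-DT interval of 221 bases held 5 CCAAT matches and 2 GC box matches, and that of H2AZ2-DT held 4 CCAAT matches and 1 GC box match. EMSY-DT had a single CCAAT match and CDK13-DT had 2 GC box matches. In TNKS2-DT the CRE and the E-box shared letters. The intervals of RANBP3-DT and STAM-DT, of 190 and 272 bases, held none of the motifs searched, which also took in the TATA box (TATAAA) and the NRF1 (GCGCATG), AP-1 (TGACTCA) and YY1 (GATGGCG) sites.

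Over a window from 250 bases before to 50 bases after the 5′ end, the 588 DT genes had a median GC content of 68.3% and a median of 30 CpG, against 50.7% and 6 over the windows of all 54257 genes. A GC box was found in 71.8% of DT windows, compared with 29.8% of all windows and 52.4% of PCG windows. An ETS match stood in 17.5% of DT windows and 6.59% of all windows, and 4 runs of GGG with spacers of at most 7 bases, which can form a G-quadruplex, in 39.5% and 16.6%. The TATA box went the other way, with 3.91% of DT windows and 16.1% of all windows. These traits were not particular to DT windows, as partner windows had a median GC content of 66.0% and a median of 27 CpG. Of the partner windows, 67.6% held a GC box, 18.9% an ETS match, 39.4% the 4 runs of GGG and 5.80% a TATA box. CCAAT was found in 29.6% of DT windows, 38.7% of partner windows and 35.6% of all windows. DT windows and partner windows overlap in many pairs, so they share bases, and a match describes letters and not a bound site.

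DT genes were low and unevenly covered. Of the 588, 18 had no count in any library and 430 had enough counts to be tested. The 158 that were not tested held 252 to 624 counts together in an irradiated library and 246 to 416 counts in a nonirradiated library. The filter asked for 0.487 CPM in 2 libraries, which 378 of the 430 reached among nonirradiated libraries, while 45 reached it only among irradiated libraries and 4 only among nonirradiated libraries. The 430 tested had a median length of 12037 bases and a median of 40.2 counts per library, and 177 of them averaged 50 counts or more. Another annotated gene overlapped 73 of the 430 on the same strand, where reads that fall in both were not counted.

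In 408 pairs the DT gene and its partner were both tested. Per kb of gene body, the DT gene had a median of 0.219 CPM, averaged over the 12 libraries, and the partner 1.01 CPM. The DT gene was at 22.1% of its partner in the median pair (interquartile range 7.29% to 67.8%), and it was denser than the partner in 73 pairs (17.9%). Across the 408 pairs the 2 densities had a Spearman correlation of 0.24, a description over genes that share libraries and are not independent replicates. In Y1P libraries the median share was 26.5% and 31.4% in irradiated cells, against 19.9% and 21.3% in nonirradiated cells. In S2P libraries it was 19.7% and 19.8% in irradiated cells, against 13.5% and 17.3% in nonirradiated cells. In S5P libraries it was 23.8% and 22.6% in irradiated cells, against 19.7% and 21.3% in nonirradiated cells. With each antibody both irradiated libraries lay above both nonirradiated libraries, and the distance was widest with Y1P.

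**Figure D1:**
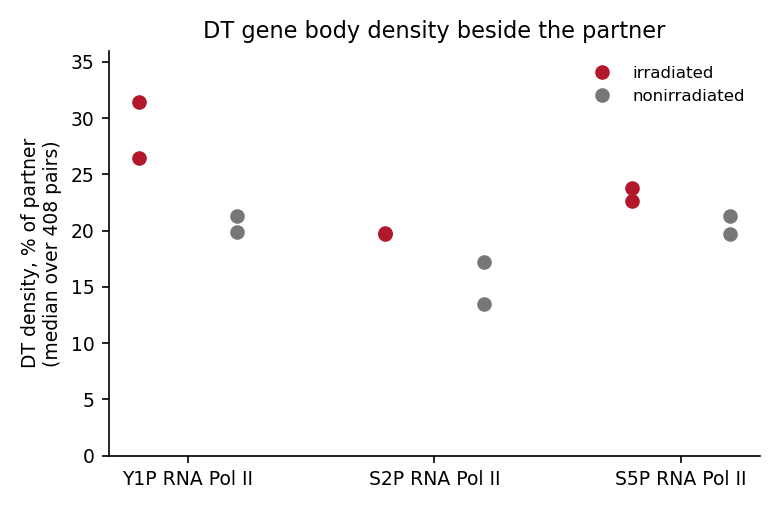
Median density of the DT gene body as a percentage of that of its partner over 408 pairs (y axis, %), for each library (points) of irradiated and nonirradiated cells with 3 antibodies (x axis). The irradiated Y1P libraries sit at 26.5% and 31.4%, the nonirradiated Y1P libraries at 19.9% and 21.3%.

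The densest DT genes were short. SLC25A28-DT, antisense within the gene of a mitochondrial iron carrier, averaged 9.93 CPM per kb over 1075 bases, and its partner 1.37 CPM per kb. DCTN6-DT, beside a dynactin subunit gene, averaged 8.89 CPM per kb, and its partner 0.366 CPM per kb. H2AZ2-DT, beside the gene of a histone H2A.Z variant, followed with 4.66 CPM per kb, and TBC1D22A-DT, beside a gene of the Rab GTPase-activating family, with 4.63 CPM per kb. C16orf95-DT averaged 3.93 CPM per kb, with 0.0711 CPM per kb for C16orf95. The other 5 of the 10 densest were ST3GAL1-DT (3.41), GOLPH3-DT (3.17), TTC32-DT (3.15), ANKRD42-DT (3.08) and CD2AP-DT (2.85 CPM per kb). ANKRD42-DT, which overlaps another gene on its strand, was the most heavily counted of these 10, with 597.6 counts per library on average, and its partner ANKRD42 had 0.113 CPM per kb. In all 10 pairs the DT gene was denser than its partner over the gene body.

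The first comparison asked how the signal of each form of RNA Pol II over DT genes differed in irradiated cells. With Y1P, 45 of the 430 DT genes (10.5%) were higher in irradiated cells and none was lower, at an adjusted p under 0.05 in the quasi-likelihood test of edgeR and a log2FC beyond 0.1. Of all 21246 genes tested, 4.38% were higher and 4.28% were lower by the same rule. The other 5297 lncRNA genes tested had 341 higher (6.44%) and 34 lower, PCGs had 523 higher and 843 lower, and the 543 partners tested had 12 higher and 54 lower. At an unadjusted p under 0.05, 125 DT genes were higher and 9 lower, against a background of 14.5% and 14.3% of all genes. The median log2FC of DT genes was 0.37, against 0.02 for all genes, 0.27 for the other lncRNA genes and -0.10 for partners. In these bulk libraries, more cells that transcribe a gene and more transcription per cell cannot be told apart.

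The 45 calls rested on the pairing of libraries by replicate number. Without the replicate block no DT gene was called, at the same median log2FC of 0.37, and without Y1P replicate 2, which holds the nonirradiated library with the lowest scaling factor, none was called at a median of 0.31. Without Y1P replicate 1, 44 were higher and 5 lower, at a median of 0.47. In both of these fits each Y1P group kept 1 library, which was assumed to vary like the libraries of the other groups.

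**Figure D2:**
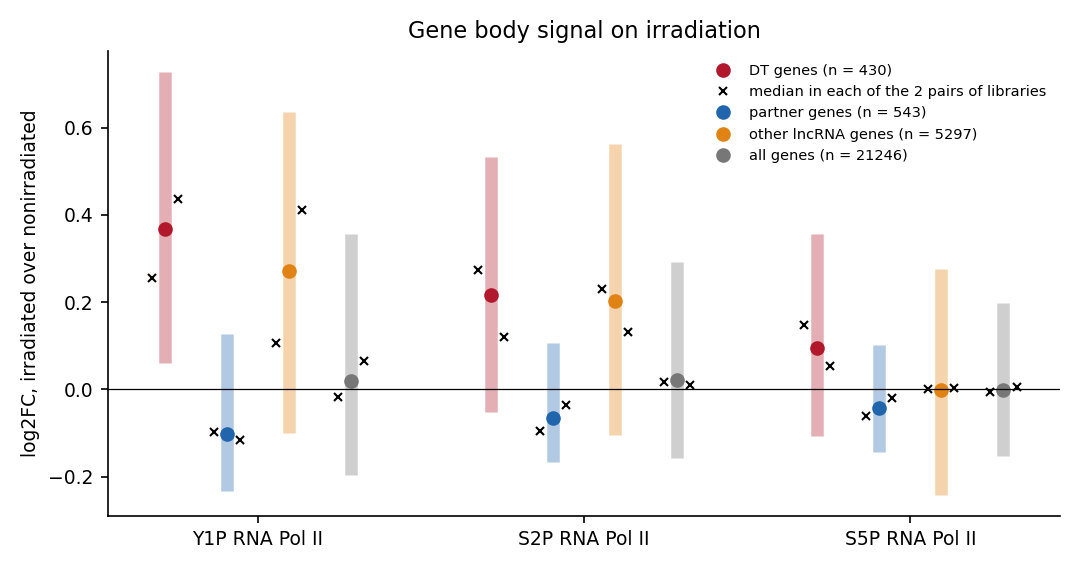
Median log2FC of gene body signal, irradiated over nonirradiated (y axis), for DT genes, partner genes, other lncRNA genes and all genes (points), with the interquartile range (bars) and the median within each of the 2 pairs of libraries (crosses), for 3 antibodies (x axis). DT genes have the highest median of the 4 lists with each antibody, at 0.37 with Y1P, 0.22 with S2P and 0.09 with S5P.

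Both pairs of Y1P libraries gave a positive median for DT genes, 0.26 in pair 1 and 0.44 in pair 2. In both pairs together, 273 DT genes (63.5%) were above 0 and 45 (10.5%) below 0, compared with 35.2% of all genes above 0. Libraries were scaled by TMM, and with library totals alone the median of all genes moved to 0.21, that of DT genes to 0.57 and that of partners to 0.09, so that the partners lay above 0 on that scale. The distance of the DT median from the median of all genes was 0.35 under either scaling, and with library totals alone 51 DT genes were higher and 0 lower, while 16 partners were higher and 1 lower. Among the 177 DT genes with at least 50 mean counts, 25 (14.1%) were called higher, against 11.9% of the 1827 other lncRNA genes and 5.27% of all 14012 genes at that depth. The median log2FC was 0.20, against 0.15 and -0.05.

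ZMPSTE24-DT, which starts 70 bases from the gene of the protease that matures prelamin A, had the largest difference among called DT genes with at least 50 mean counts. It measured 4.42 and 6.88 CPM in irradiated Y1P libraries, against 1.93 and 2.81 CPM in nonirradiated Y1P libraries, so the groups did not overlap. Its log2FC was 1.24 ± 0.21 (SE, n = 2 libraries each; edgeR adjusted p = 0.016), a 2.37-fold difference, while the partner ZMPSTE24 had a log2FC of -0.27 (adjusted p = 0.0788). With S2P it measured 1.99 and 2.62 CPM in irradiated libraries, against 1.95 and 2.09 CPM in nonirradiated libraries. With S5P it measured 3.41 and 3.59 CPM in irradiated libraries, against 2.34 and 3.05 CPM in nonirradiated libraries. The Y1P effect minus the S2P effect was 1.08 ± 0.32 (SE; unadjusted p = 0.0049 in edgeR), which did not pass adjustment over all genes (adjusted p = 1).

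H2AZ2-DT, which was also among the densest, measured 6.08 and 7.96 CPM in irradiated Y1P libraries, against 3.02 and 3.85 CPM in nonirradiated Y1P libraries. Its log2FC was 1.03 ± 0.18 (SE; edgeR adjusted p = 0.0177). It lay on the same side with the other antibodies, at 2.90 and 4.76 CPM in irradiated S2P libraries, against 1.57 and 2.75 CPM in nonirradiated S2P libraries, and at 6.39 and 5.99 CPM in irradiated S5P libraries, against 3.99 and 4.03 CPM in nonirradiated S5P libraries. Those log2FC, 0.83 and 0.62, did not pass the test (edgeR adjusted p = 0.143 and 0.28). EMSY-DT, beside the gene of a BRCA2-binding repressor, was even across replicates, with 9.92 and 9.42 CPM in irradiated Y1P libraries, against 5.26 and 5.28 CPM in nonirradiated Y1P libraries (log2FC 0.88 ± 0.18, edgeR adjusted p = 0.0224).

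RANBP3-DT, beside the gene of a Ran-binding cofactor of nuclear export, was the longest of the 8 with 42031 bases. It measured 6.13 and 6.83 CPM in irradiated Y1P libraries, against 3.73 and 3.04 CPM in nonirradiated Y1P libraries. NFE2L1-DT, whose partner encodes an activator of proteasome genes, measured 3.70 and 4.85 CPM in irradiated Y1P libraries, against 2.45 and 1.84 CPM in nonirradiated Y1P libraries. For both, the irradiated libraries lay above the nonirradiated ones without overlap. The groups also did not overlap in 44 of all 45 called DT genes, and in 177 of the 385 not called. Genes picked as called were thus likely to show such separation. ODC1-DT, beside the ornithine decarboxylase gene of polyamine synthesis, measured 4.61 and 5.56 CPM in irradiated Y1P libraries, against 2.54 and 2.70 CPM in nonirradiated Y1P libraries. STAM-DT, beside a gene of endosomal sorting, measured 3.70 and 4.95 CPM in irradiated Y1P libraries, against 2.37 and 2.13 CPM in nonirradiated Y1P libraries. TMEM18-DT, which overlaps another gene on its strand, measured 4.32 and 6.27 CPM in irradiated Y1P libraries, against 2.37 and 2.99 CPM in nonirradiated Y1P libraries. The log2FC of these 5 lay between 0.92 and 0.97 (edgeR adjusted p = 0.0227 to 0.0399), and none of the 8 partners was called with Y1P, with log2FC from -0.27 (ZMPSTE24) to 0.34 (TMEM18).

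**Figure D3:**
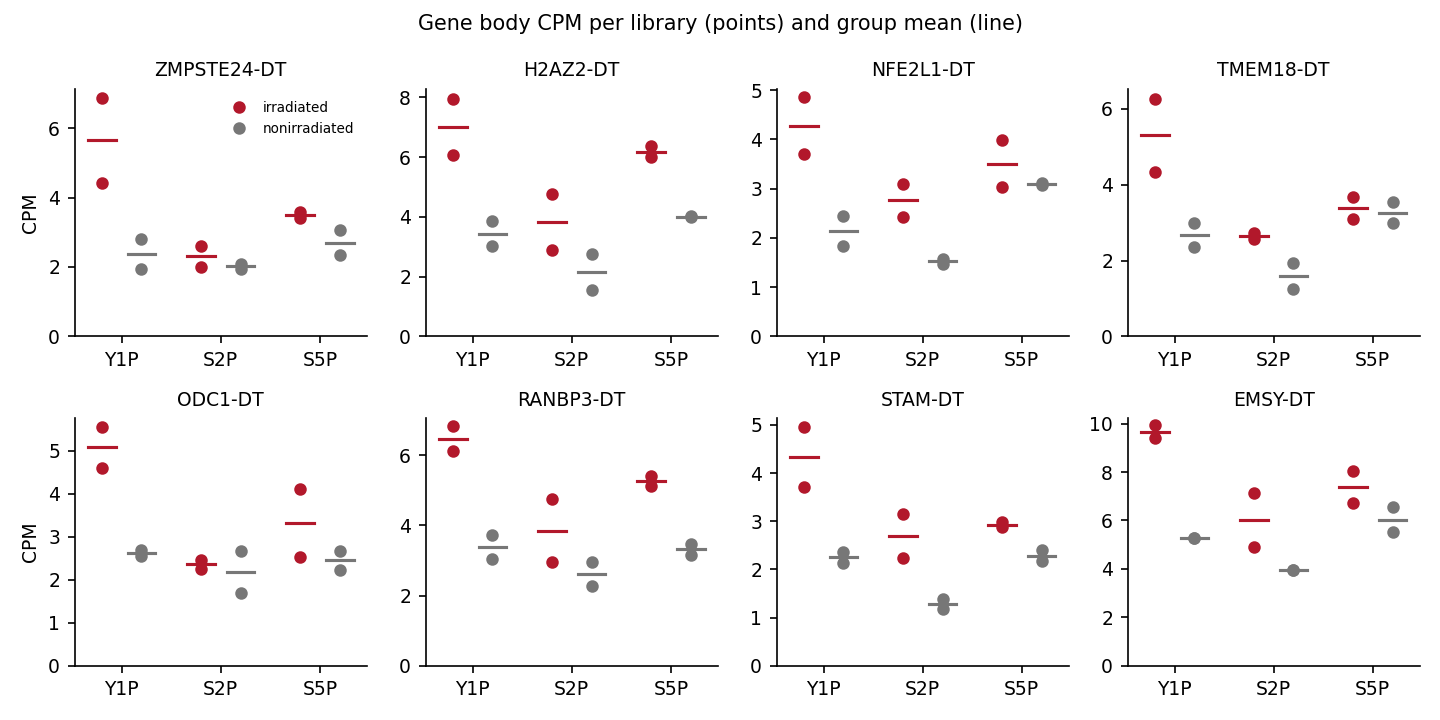
CPM over the gene body (y axis) of the 8 called DT genes with the largest Y1P log2FC and at least 50 mean counts, in each library (points) with the group mean (line), for irradiated and nonirradiated cells with 3 antibodies (x axis). In all 8 panels both irradiated Y1P libraries lie above both nonirradiated Y1P libraries, which the choice of called genes made likely. For ZMPSTE24-DT they lie at 4.42 and 6.88 against 1.93 and 2.81 CPM.

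The called DT genes with at least 50 mean counts had log2FC from 0.48 (GSK3B-DT) to 1.24 (ZMPSTE24-DT). The other 20 of the 45 were thinly counted, and 41 of the 45 reached the filter on low counts among nonirradiated libraries. The rest passed it only with irradiated libraries counted, and a gene admitted through the group where it is high had to differ. LEMD1-DT, for one, measured 0.712 and 0.565 CPM in irradiated Y1P libraries, against 0.0877 and 0.0574 CPM in nonirradiated Y1P libraries, at 4.92 counts per library. The called DT genes had a median length of 3889 bases, against 13600 bases for the 385 not called, and a median density of 0.579 CPM per kb, against 0.193 CPM per kb. Their promoter windows had a median GC content of 70.3%, against 68.7%. Their median log2FC was 0.48 with S2P and 0.24 with S5P, and 43 and 40 of the 45 lay above 0 with those antibodies. No DT gene was called lower, and those nearest to it were EOLA2-DT (log2FC -0.30, edgeR adjusted p = 0.0582) and RNPC3-DT (-0.51, adjusted p = 0.0596), singled out after their values were seen.

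With S2P and S5P no DT gene was called in either direction by edgeR. Of all genes, 0.0141% were higher and 0.0847% lower with S2P, and 0.00941% higher and 0.0424% lower with S5P. At an unadjusted p under 0.05, 50 DT genes were higher and 19 lower with S2P, against 8.31% and 9.39% of all genes, and 19 were higher and 12 lower with S5P, against 6.82% and 4.8% of all genes. DESeq2 on the summed libraries called none with either antibody, though it gave no adjusted p for 414 and 313 of the 430. DESeq2 on the 24 runs with a batch term, which counts the 2 runs of a library as if they were separate replicates, called 13 higher and 9 lower with S2P, and 1 higher and 3 lower with S5P. The median log2FC of DT genes was 0.22 with S2P, against 0.02 for all genes and 0.20 for the other lncRNA genes. With S5P it was 0.09, against -0.002 for all genes and -0.0003 for the other lncRNA genes. The DT medians were 0.11 without S2P replicate 1 and 0.05 without S5P replicate 1. Among the 177 DT genes with at least 50 mean counts they were 0.08 with S2P and 0.02 with S5P. The medians of all genes at that depth were -0.04 and -0.006. Of the 430 DT genes, 88 (20.5%) were above 0 in all 6 pairs of libraries. The shares were 12.3% for all genes and 14.2% for the other lncRNA genes. Below 0 in all 6 were 16 DT genes (3.72%), compared with 14.1% of all genes and 4.68% of the other lncRNA genes.

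The second comparison asked whether the effect of IR on a DT gene differed between antibodies. No DT gene was called in any of the 3 interaction tests of edgeR. Of all genes, 0% were called for Y1P minus S2P and for Y1P minus S5P, and 0.00471% for S5P minus S2P. At an unadjusted p under 0.05, the Y1P effect was above the S5P effect for 35 DT genes and below it for 1, against 3.51% and 3.88% of all genes. Among the 5297 other lncRNA genes it was above for 326 and below for 44. The median of Y1P minus S5P was 0.25 for DT genes and 0.26 for the other lncRNA genes. The Y1P effect was above the S2P effect for 14 DT genes and below it for 3, against 1.36% and 1.75% of all genes. The S5P effect was above the S2P effect for 0 and below it for 18, against 1.22% and 3.11%. DESeq2 on the libraries called 0 for both differences with Y1P and 1, lower, for S5P minus S2P. The calls with Y1P alone are thus not shown to differ from S2P or S5P for any single DT gene. ZNF236-DT, chosen after its values were seen, had the smallest unadjusted p of any DT gene in the 3 tests, for S5P minus S2P, at -1.62 ± 0.29 (SE; unadjusted p = 6.79e-05, adjusted p = 0.288 in edgeR). It measured 31.5 and 13.3 CPM in irradiated S2P libraries, against 14.9 and 8.97 CPM in nonirradiated S2P libraries. With S5P it measured 14.1 and 9.43 CPM in irradiated libraries, against 24.7 and 15.5 CPM in nonirradiated libraries. With S2P the groups overlapped, and with S5P they did not.

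The response of a gene body went with its length. With Y1P the median log2FC of DT genes was 0.68 for the 74 under 2 kb, 0.59 for the 131 of 2 to 10 kb, 0.30 for the 124 of 10 to 50 kb and 0.04 for the 101 over 50 kb. In the same order 11 (14.9%), 17 (13.0%), 14 (11.3%) and 3 (2.97%) were called higher. The other lncRNA genes had medians of 0.61, 0.49, 0.29 and -0.01 in the same classes, and PCGs 0.38, 0.26, 0.02 and -0.15. DT genes lay within 0.1 of the other lncRNA genes in each class with Y1P, and above PCGs in each class. With S2P the DT medians were 0.49, 0.36, 0.18 and 0.00, and with S5P 0.34, 0.20, 0.06 and -0.08. Short genes were also thin, with a median of 15.4 counts per library under 2 kb and 122 over 50 kb. The DT medians, here and over all 430, include 45 DT genes that passed the filter only among irradiated libraries. Against these, 4 passed it only among nonirradiated libraries. Genes admitted through irradiated libraries can lift a median, by an amount that was not tested. With Y1P the median was 0.54 for the 253 DT genes under 50 mean counts and 0.20 for the other 177. When a trend on gene length was removed from the log2 values, 1 DT gene was called higher and 1 lower with Y1P, and the DT median was 0.24.

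**Figure D4:**
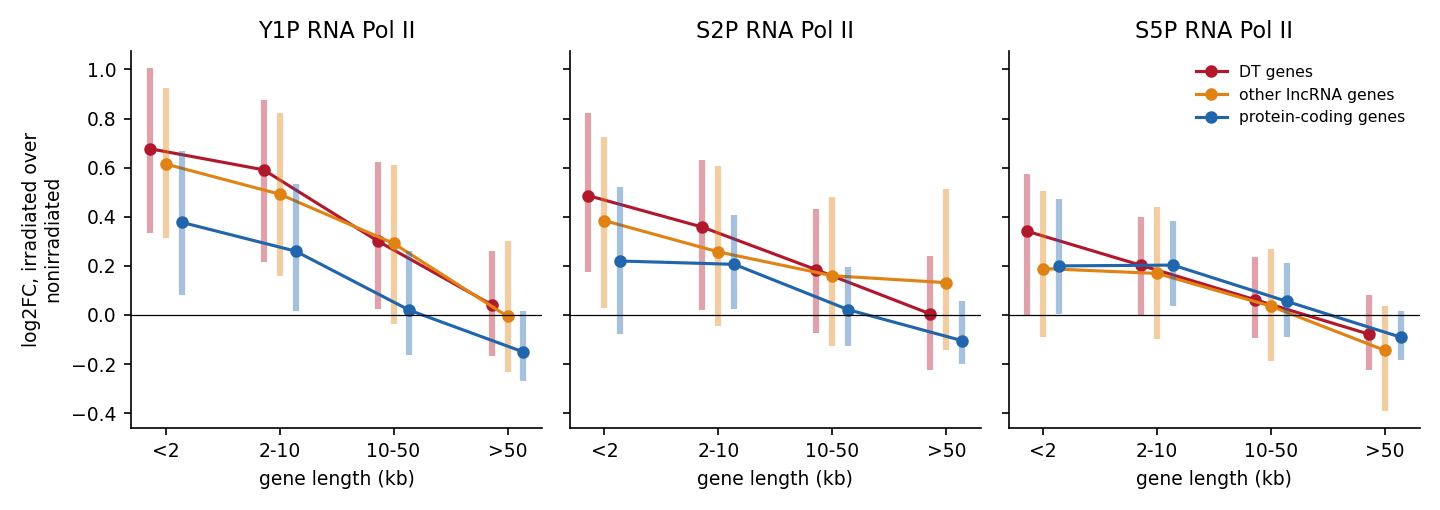
Median log2FC, irradiated over nonirradiated (points; y axis), with the interquartile range (bars), in 4 classes of gene length (x axis, kb) for DT genes, other lncRNA genes and PCGs, with a panel for each antibody. With Y1P the DT medians are 0.68, 0.59, 0.30 and 0.04 from the shortest to the longest class.

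In the response to IR, most DT genes lay above their partners with Y1P and S2P, and with S5P the distance was small. Over the 408 pairs, the DT log2FC exceeded that of the partner in 315 pairs (77.2%) with Y1P, 298 (73.0%) with S2P and 259 (63.5%) with S5P. The median difference, DT minus partner, was 0.45 with Y1P (0.34 and 0.50 in the 2 pairs of libraries), 0.26 with S2P (0.36 and 0.15) and 0.11 with S5P (0.17 and 0.02). With Y1P the DT gene was above 0 and its partner below 0 in 52.7% of pairs, and the reverse held in 31 pairs. Both genes were above 0 in 112 pairs and below 0 in 50. With library totals alone, where partners as a list lay above 0, the DT gene was above 0 and its partner below in 123 pairs (30.1%), but the median difference was still 0.44. Partners were longer, with a median of 46155 bases, against 12037 bases for the tested DT genes. With the length trend removed the median difference was 0.28 with Y1P, 0.20 with S2P and 0.03 with S5P, where the DT gene exceeded its partner in 53.9% of pairs. With at least 50 mean counts in both genes, over 163 pairs, it was 0.24, 0.12 and 0.04.

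Between the members of a pair the measured log2FC were at most weakly correlated. The Spearman correlation of the 2 log2FC across the 408 pairs was -0.01 with Y1P, 0.06 with S2P and 0.08 with S5P. It is a description over genes of the same libraries. With at least 50 mean counts in both genes, over 163 pairs, it was -0.03, 0.05 and 0.14. Thin counts can lower such a correlation, by an amount that was not tested, so a relation between the genes is not excluded. Of the 45 pairs with a called DT gene, the partner was called lower in 4 and higher in 2, and 29 of the 45 partners lay below 0 (13 of 45 with library totals alone). Of the 363 partners of DT genes that were not called, 47 were called lower and 9 higher, and 236 lay below 0.

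**Figure D5:**
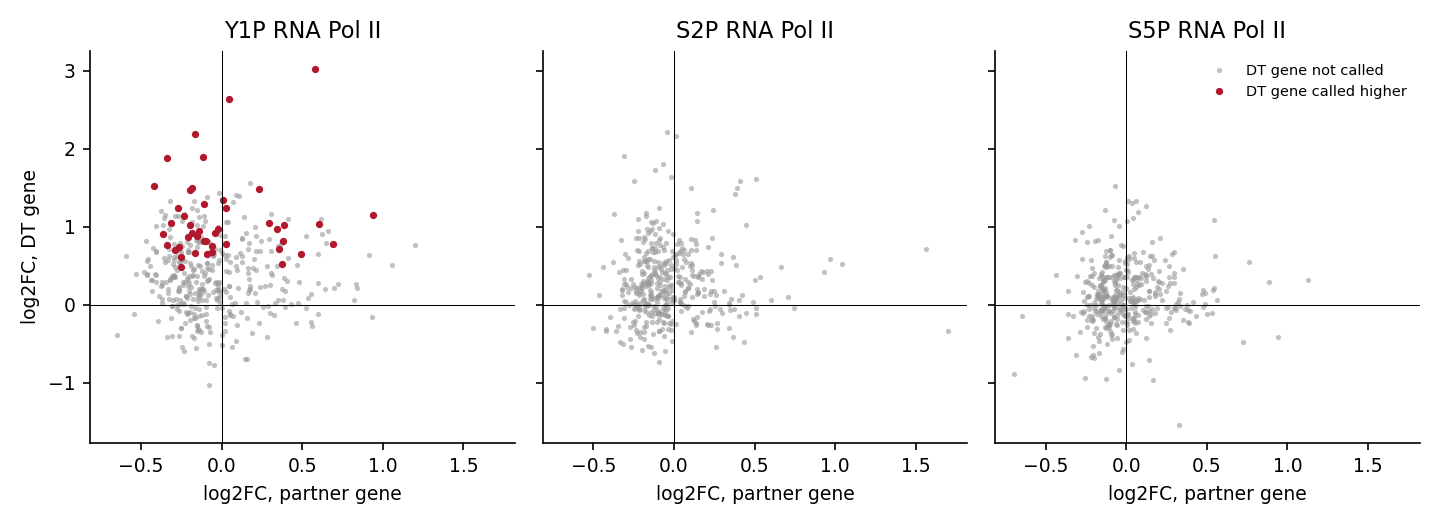
log2FC of the DT gene (y axis) and of its partner (x axis), irradiated over nonirradiated, for 408 pairs (points) with a panel for each antibody. Called DT genes are drawn in red, and all 45 are in the Y1P panel; 29 of them have a partner below 0 with TMM scaling, and 13 with library totals alone.

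With Y1P the DT gene was called higher and its partner lower in 4 pairs with TMM, 4 with relative log expression factors and 2 with upper quartile factors. With library totals alone no pair was called in opposite directions, so the calls of the 4 pairs that follow depended on the scaling. The 4 pairs in which the DT gene was higher and the partner lower with Y1P were those of CDK13, TNKS2, NUP107 and GNB1. CDK13 encodes a kinase of the RNA Pol II C-terminal domain. CDK13-DT measured 6.41 and 9.57 CPM in irradiated Y1P libraries, against 4.34 and 4.88 CPM in nonirradiated Y1P libraries (log2FC 0.77 ± 0.18, edgeR adjusted p = 0.0297). CDK13 measured 139 and 127 CPM in irradiated Y1P libraries, against 162 and 174 CPM in nonirradiated Y1P libraries (-0.34 ± 0.09, adjusted p = 0.0351). For neither gene did the groups overlap. TNKS2-DT, beside the gene of the poly(ADP-ribose) polymerase tankyrase 2, measured 2.47 and 4.01 CPM in irradiated Y1P libraries, against 1.49 and 1.90 CPM in nonirradiated Y1P libraries, and TNKS2 82.0 and 72.8 CPM in irradiated cells, against 99.2 and 99.8 CPM in nonirradiated cells. The log2FC were 0.91 ± 0.26 for TNKS2-DT and -0.36 ± 0.09 for TNKS2 (edgeR adjusted p = 0.0456 and 0.0283). NUP107-DT, beside a nuclear pore gene, had a log2FC of 1.04 ± 0.26 and NUP107 of -0.32 ± 0.09 (edgeR adjusted p = 0.032 and 0.0398). GNB1-DT, beside the gene of a G protein beta subunit, had 1.53 ± 0.42 at 15.6 counts per library and GNB1 -0.42 ± 0.10 (adjusted p = 0.0418 and 0.0297). In the pairs of SLC25A28 and YPEL3 both genes were called higher. SLC25A28-DT measured 12.7 and 18.3 CPM in irradiated Y1P libraries, against 7.58 and 12.5 CPM in nonirradiated Y1P libraries, groups that just cleared each other.

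Of 32 damage response and signalling genes listed, BTG2, a target of p53 that restrains proliferation, was the only one with a DT gene in the table. BTG2-DT measured 1.95 and 2.07 CPM in irradiated Y1P libraries, against 1.58 and 1.90 CPM in nonirradiated Y1P libraries (log2FC 0.22 ± 0.30, edgeR adjusted p = 0.676). BTG2 itself measured 14.1 and 13.5 CPM in irradiated Y1P libraries, against 7.63 and 7.81 CPM in nonirradiated Y1P libraries, and was called higher (0.84 ± 0.15, adjusted p = 0.0185). With S2P and S5P, BTG2-DT had a log2FC of -0.04 and -0.03.

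The response with Y1P was also set out by geometry and by class of partner. The median log2FC was 0.31 for the 234 tested DT genes that started 0 to 250 bases from the partner, 0.42 for the 64 over 250 and up to 1000 bases away, 0.48 for the 9 further away and 0.40 for the 122 with overlapping 5′ ends. DT genes that overlapped another gene on the same strand had a median of 0.12 (4 of 73 higher) and a median length of 58325 bases, and the others a median of 0.42 (41 of 357 higher) and 8125 bases. By partner class, 2 of the 15 tested DT genes of zinc finger genes were higher with Y1P, 2 of the 5 of SLC transporters, 1 of the 6 of developmental factors, and 0 of the 9 of ubiquitin genes, 0 of the 3 of mitochondrial ribosomal proteins and 0 of the 2 of cytosolic ribosomal proteins. The remaining 390 had 40 higher.

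A list of 58 genes was drawn up around the ending and decay of divergent transcripts. It also took in U1 particle proteins and TOP1, which are not themselves factors that end or degrade transcripts. Of these 58 genes, 56 were tested. With Y1P, 9 had lower gene body signal in irradiated cells and none higher, at a median log2FC of -0.18. By the same rule 4.28% of all genes and 5.75% of PCGs were lower, and 628 of the 6291 PCGs over 50 kb. With library totals alone 1 was lower and the median was 0.01. The 9 were INTS4 (-0.56 ± 0.08, edgeR adjusted p = 0.00739) and INTS2 of Integrator, EXOSC10 and DIS3, the exosome nucleases, the cap-binding NCBP1, SNRPC of the U1 particle, the poly(A) factor WDR33, the torpedo exonuclease XRN2 and the topoisomerase TOP1. With S2P and S5P none was called, at medians of -0.07 and -0.06. Their part in the signal of DT genes was not tested.

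The last comparison set antibodies against each other in nonirradiated cells. For Y1P over S2P, 9 DT genes (2.09%) were higher and none lower at a log2FC beyond 1, against 1.02% of all genes higher and 0.0659% lower, and 134 of the 5297 other lncRNA genes (2.53%) were higher. At an unadjusted p under 0.05, 106 were higher and 3 lower, against 12% and 12.5% of all genes. The median log2FC of DT genes was 0.36, against 0.04 for all genes, 0.30 for the other lncRNA genes and -0.09 for partners. Without S2P replicate 1 the DT median was 0.21. S5P over S2P gave a median of 0.33 (0.17 without S2P replicate 1), against 0.28 for the other lncRNA genes, with 0 calls. At an unadjusted p under 0.05, 88 DT genes were higher and 3 lower, against 8.64% and 9.57% of all genes. Y1P over S5P gave a median of 0.05, whose sign turned with library totals alone (-0.07) and without S5P replicate 2 (-0.004), and 0 calls, with 23 higher and 10 lower at an unadjusted p under 0.05, against 3.91% and 2.78% of all genes. Neither of these comparisons had a call among all genes (0%). DESeq2 on the libraries called 3 DT genes for Y1P over S2P and none for the other 2 comparisons, but it gave no adjusted p for 267 of the 430 in Y1P over S2P and 414 in S5P over S2P. These 3 comparisons share libraries.

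DCTN6-DT was among the 3 named by size and depth for Y1P over S2P. It measured 5.00 and 6.60 CPM in nonirradiated Y1P libraries, against 1.90 and 3.16 CPM in nonirradiated S2P libraries, and 3.99 and 5.18 CPM in nonirradiated S5P libraries (Y1P over S2P, log2FC 1.21 ± 0.20, edgeR adjusted p = 0.00231). ZFAND3-DT, beside a zinc finger gene, measured 4.16 and 5.74 CPM with Y1P, against 2.38 and 1.83 CPM with S2P (1.21 ± 0.24, adjusted p = 0.00496). SLC25A28-DT measured 7.58 and 12.5 CPM with Y1P, against 2.998 and 6.11 CPM with S2P (1.14 ± 0.19, adjusted p = 0.00231). In each of the 3 the Y1P libraries lay above the S2P libraries. The 9 calls fell to 2 without Y1P replicate 2 or without S2P replicate 1, and to 0 without the replicate block.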

How the data were processed

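The authors trimmed mNET-seq reads with cutadapt (version 1.8.3 in the submitters' processing notes), aligned them to hg38 with STAR and deposited raw counts per gene body and run, taken on the annotated strand without multimapping reads; the annotation release is not given in the sources used here. Rows were matched to GENCODE release 44 by ID without version, which 120 rows did not match, and 1022 repeated rows without counts were left out. The 2 batch runs of a library gave a chi-square of 1.06 to 1.10 relative to its degrees of freedom, against 8.95 to 61.2 between replicate numbers, and were summed.

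Genes kept by filterByExpr were fitted with edgeR 4.0.16 (R 4.3.3; TMM; quasi-likelihood test, 3 residual degrees of freedom), with a term per group and a block for the replicate number within each antibody, or shared by the antibodies where these were compared. P-values were adjusted (Benjamini-Hochberg) over the 21246 genes fitted, and an SE is the log2FC over the root of F. The block was kept because replicate differences correlated at 0.168 to 0.392 over 15 pairs of groups. The lowest was between irradiated and nonirradiated Y1P, the pair behind the Y1P calls. The highest was between nonirradiated Y1P and nonirradiated S5P, which a block within each antibody does not model. The labels do not say that a number marks a shared culture. The fit was tested on simulated data. Alternatives were other scalings, filters, blocks, batches, DESeq2 1.42.0, a length trend and leaving out replicates.

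The DT genes, gene lists and rules were chosen with earlier results of these data known. Named genes were, for each antibody, up to 8 called DT genes in each direction with the largest log2FC, at least 50 mean counts and the same sign in each pair of libraries; the 10 densest; up to 5 in each direction between antibodies with at least 50 mean counts; DT genes called opposite to their partner; DT genes of listed damage response and signalling genes; and the partners of all these. Density is CPM per kb of gene length beyond the first 200 bases. Sequence windows were read from hg38 at GENCODE 5′ ends.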

Additional observations from a re-analysis of the deposited data

How the results depend on the processing

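Of 228 alternative values for counts of DT genes and for median differences from partners, 188 stayed within the limits set for them and 40 moved. Most of the 21 results behind them were counts of 0 in the main fit, so this tally does not measure how stable the calls were. The counts of 45 (higher with Y1P in irradiated cells) and 9 (higher for Y1P over S2P) each moved under most alternatives. Median log2FC of DT genes changed sign for Y1P over S5P (0.05) with library totals alone (-0.07) and without S5P replicate 2 (-0.004), and for the S5P minus S2P effect (-0.08) without S2P replicate 1 (0.01). DT genes higher with Y1P in irradiated cells (45 of 430) numbered 78 of the 570 tested without a filter on low counts. They numbered 79 with 1 replicate block shared by the antibodies, 93 with DESeq2 on the runs, and 9 and 15 within batches 1 and 2. The count was 1 with a length trend removed and 0 without the replicate block. With DESeq2 on the libraries it was also 0, where 406 of the 430 had no adjusted p. Leaving out a replicate gave 0 (without Y1P replicate 2) to 44. DT genes lower with Y1P (0) became 3 with relative log expression factors, 6 with the shared block, 9 with DESeq2 on the runs, 1 in batch 1, 1 with the length trend removed and 0 to 5 leaving out a replicate. The causes were not tested.

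With S2P, DESeq2 on the runs gave 9 lower (0) and 13 higher (0), and the higher count was 11 without a filter, 2 with the shared block and 2 with a separate fit per antibody. With S5P, the lower count (0) was 2 without a filter, 5 with a separate fit and 3 with DESeq2 on the runs, and the higher count (0) was 7 with a separate fit and 1 with DESeq2 on the runs. For Y1P over S2P, the 9 higher became 5 with library totals alone, 16 without a filter, 0 without the replicate block, 3 with DESeq2 on the libraries, 5 in batch 1 and 2 to 9 leaving out a replicate. Without a filter, 1 was higher for Y1P over S5P (0) and 9 for S5P over S2P (0). In the interactions, leaving out a replicate gave 0 to 1 higher for Y1P minus S5P (1 without Y1P replicate 1) and 0 to 1 lower for S5P minus S2P (1 without S5P replicate 1 or S5P replicate 2), where DESeq2 on the libraries gave 1. The median difference between DT gene and partner with Y1P (0.45) was 0.28 with the length trend removed, an alternative chosen after seeing the data, and 0.24 with at least 50 mean counts in both genes.

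LEMD1-DT, GSK3B-DT and YPEL3-DT were mentioned as called but were not picked by the rules for named genes. The 17 called DT genes that those rules picked stayed above 0 under every alternative run (16 under the stricter filter, which kept 16). Their calls numbered 0 without the replicate block and with DESeq2 on the libraries. They numbered 1 with the length trend removed, and 4 and 10 within batches 1 and 2. Their log2FC ran from 0.53 to 1.73 without Y1P replicate 1 and from 0.47 to 1.38 without Y1P replicate 2. In those fits each Y1P group kept 1 library. DT genes had a median of 40.2 counts per library.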
